A study of Mus musculus with 2 samples.

Results

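The interleukin 1 family was followed through 9 genes: the ligands Il1a, Il1b, Il18 and Il33, the antagonist Il1rn, and the receptor chains Il1r1, Il1r2, Il1rap and Il1rl1. Members were taken by name, through the gene symbol or the transcript listed for a probe on the array. They are 9 of 19505 genes named on the array and hold 18 of its 41174 probes. RNA of fetal thymic stromal cells grown as a reaggregation thymus organ culture (RTOC) was set beside RNA of such cells grown in 2D culture, on 2 Agilent arrays that each measured both cultures in 2 dyes. Fetal thymus lobes of C57BL/6 mice were kept in organ culture with 1.35 mM deoxyguanosine, an agent used to deplete lymphoid cells, for 8 days for E14.5 lobes and 9 days for E15.5 lobes. The lobes were then dispersed with enzymes, and the cells were either spread in a dish (2D culture, Cy3) or packed on a membrane (RTOC, Cy5) and collected after 72 h. The cells of both cultures were thus a mixture of all stromal types that survived organ culture, with no sorting step named, and both cultures had been exposed to deoxyguanosine. The E14.5 and E15.5 arrays came from separate experiments and served as 2 replicates, so that fetal stage, length of organ culture and array are confounded and cannot be told apart. No array has the dyes exchanged, and dye bias of a probe and an effect of the culture cannot be told apart either.

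Interleukin 1 alpha and beta bind a receptor made of the ligand-binding chain Il1r1 and the accessory chain Il1rap, which signals through Myd88 and the Irak kinases to NF-kB. Il1rn, the receptor antagonist, occupies Il1r1 without recruiting the accessory chain, and Il1r2 is a decoy that binds ligand but cannot signal. Interleukin 33 acts through ST2, the product of Il1rl1, which shares the accessory chain Il1rap and is also made as a soluble form that captures the ligand. Interleukin 18 has a receptor of its own and, like interleukin 1 beta, is made as a precursor that caspase-1 cleaves. Interleukin 1 was first studied as a factor that costimulates thymocytes, and interleukin 33 is known as a nuclear protein of epithelial, endothelial and fibroblastic stroma that is released by damage.

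Each measurement rests on a probe of 60 bases that is printed once on an array, except those of Il1b and Il18, which are printed 10 times. The probes shown are the Il18 probe, which is 1 of the 4 called, the dimmest of the 3 Il1rl1 probes, the brighter of the 2 Il1r2 probes and the second probes of Il1a and Il1rn, because they lie in protein-coding sequence.
Il18: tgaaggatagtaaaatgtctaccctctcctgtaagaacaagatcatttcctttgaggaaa
Il1rl1, dimmest probe: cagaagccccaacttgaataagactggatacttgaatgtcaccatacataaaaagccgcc
Il1r2, brighter probe: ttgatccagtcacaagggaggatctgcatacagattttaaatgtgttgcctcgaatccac
Il1a, second probe: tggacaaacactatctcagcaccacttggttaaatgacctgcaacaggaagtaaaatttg
Il1rn, second probe: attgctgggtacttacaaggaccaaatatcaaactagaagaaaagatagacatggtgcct
All letters are lower case because no part of a probe is singled out. The files pair the brightest Il1rl1 probe with a different RefSeq transcript from the other 2 probes of that gene, and which of the membrane and soluble forms each probe detects was not tested.

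The 250 bases before the start site were taken for all 9 genes from RefSeq's annotation of GRCm38.p6, in 14 windows because some genes have more than 1 start site. They are shown for the 3 genes whose brightest probe passed the test, with both start sites of Il1rl1 and the first of Il33. Capitals mark GATAA on either strand, the core of GATA factor sites.
Il18, chr9:50554450-50554699, plus strand: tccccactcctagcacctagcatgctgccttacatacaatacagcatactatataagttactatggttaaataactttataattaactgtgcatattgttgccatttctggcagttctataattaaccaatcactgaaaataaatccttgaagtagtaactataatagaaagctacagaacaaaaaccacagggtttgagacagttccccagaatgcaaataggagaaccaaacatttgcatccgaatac
Il33, chr19:29924863-29925112, plus strand: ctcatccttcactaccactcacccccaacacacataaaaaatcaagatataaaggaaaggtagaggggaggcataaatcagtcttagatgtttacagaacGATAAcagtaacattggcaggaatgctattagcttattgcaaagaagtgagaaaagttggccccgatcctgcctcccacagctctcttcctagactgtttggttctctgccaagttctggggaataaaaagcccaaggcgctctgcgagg
Il1rl1, first start site, chr1:40429320-40429569, plus strand: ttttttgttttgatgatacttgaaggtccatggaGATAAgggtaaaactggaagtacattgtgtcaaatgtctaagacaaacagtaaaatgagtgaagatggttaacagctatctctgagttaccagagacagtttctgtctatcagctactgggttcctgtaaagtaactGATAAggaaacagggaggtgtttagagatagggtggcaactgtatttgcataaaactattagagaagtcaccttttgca
Il1rl1, second start site, chr1:40439379-40439628, plus strand: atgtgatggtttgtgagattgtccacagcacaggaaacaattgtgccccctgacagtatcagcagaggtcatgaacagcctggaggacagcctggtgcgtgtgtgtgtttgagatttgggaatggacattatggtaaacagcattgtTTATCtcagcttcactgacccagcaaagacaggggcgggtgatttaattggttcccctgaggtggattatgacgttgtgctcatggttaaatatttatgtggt
GATAA was found in windows of 3 of the 9 genes, Il1rl1, Il33 and Il1r2, and in 22.6% of 32851 windows of the same length. In Il1rl1 the matches lay 79 and 216 bases before the first start site and 103 bases before the second. The AP-1 motif TGANTCA was found in windows of 2 genes, Il1a (TGACTCA, 12 bases before the start) and Il1rn (TGAGTCA, 141 bases before the first start), against 6.75% of all windows. The kappa-B consensus was found for Il1r1 alone, against 7.25% of all windows. The members are counted by gene, and some have more than 1 window, whereas the shares are by window, so these are unlike measures. No match of a member overlapped another, and a match describes letters in a window and not binding.

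Signals were quantile normalized over the 4 channels, and the log2 ratio of RTOC over 2D culture was tested with limma over 23681 probes. The test took probes of which 1 or both channels stood well above the local background on each array, and 53.1% to 60.9% of all probes stood so in a channel. The number of arrays limits the precision of every value, and flipping the signs of 2 ratios in an exact two-sided test gives at best p = 0.5. Of the 18 member probes, 12 were tested and 6 were too dim, and 8 stood well above background in all 4 channels. Called were 4 member probes, 2 higher and 2 lower in RTOC, beside 28.8% of all probes tested (15.2% higher and 13.6% lower). A gene was called by its brightest probe, and that probe was tested for all 9 members.

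The ligands Il18 and Il33 were higher in RTOC, the interleukin 33 receptor Il1rl1 was lower in RTOC, and the other 6 members did not pass the test. Called members thus numbered 3 of 9 (33.3%) at an adjusted p under 0.05, beside 28.1% of all 13495 genes tested by their brightest probe, a share too near to set the family apart. By direction, 2 members were higher, beside 15.4% of all genes, and 1 was lower, beside 12.7%. The median log2 ratio of the members was 0.42, beside 0.00 over all genes tested. The plot of signals by culture shows these 9 probes in all 4 channels.

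**Figure D1:**
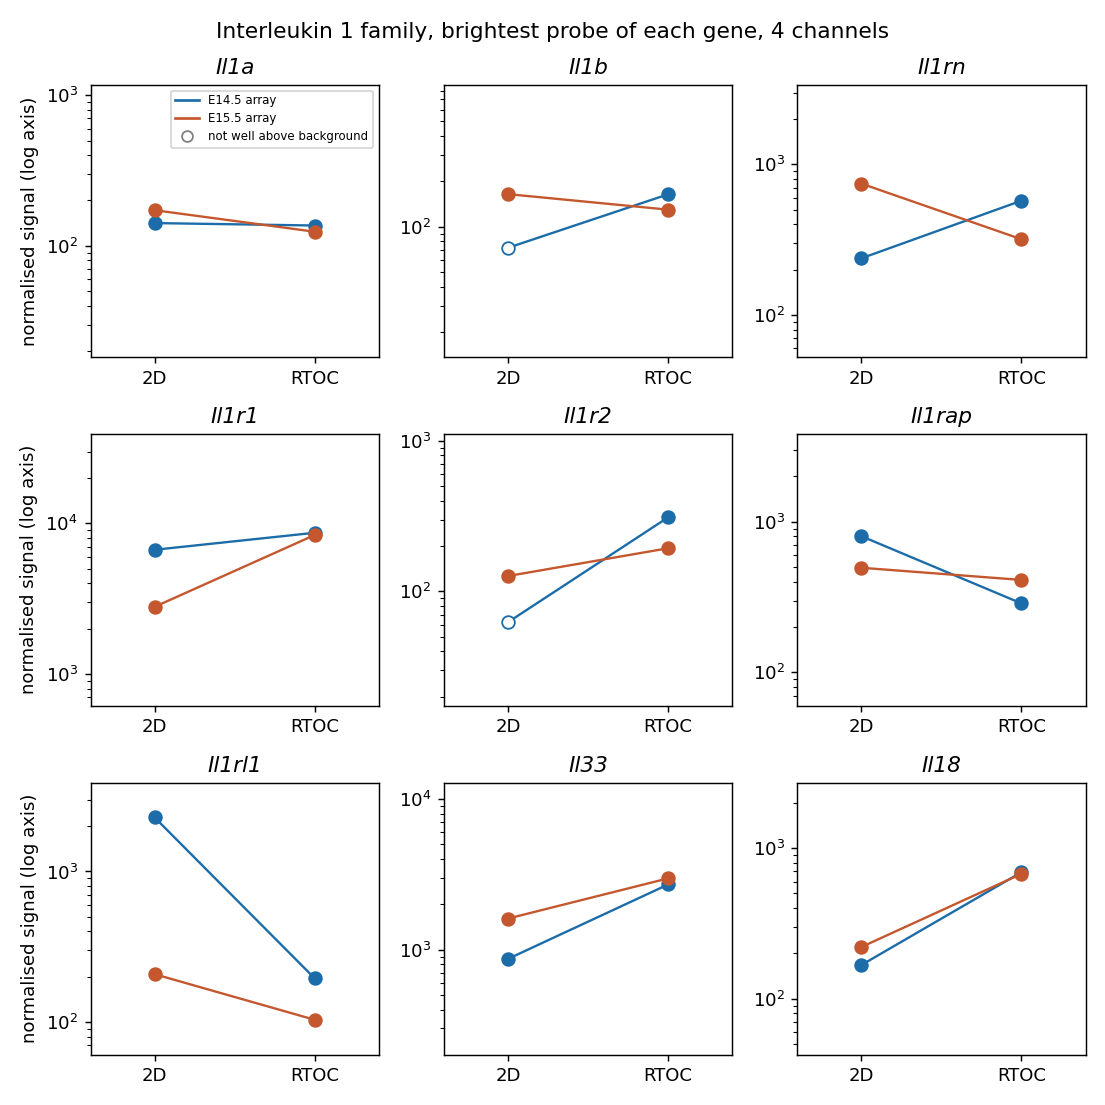
Normalised signal (log axis) of the brightest probe of each member in 2D culture and RTOC, with 1 line for each array and an open symbol where the probe was not well above background; each panel has its own range. Both lines rise for Il18, Il33, Il1r1 and Il1r2, both fall for Il1rl1, Il1rap and, by little, Il1a, and the 2 lines cross in opposite directions for Il1b and Il1rn.

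Il18, the ligand with a receptor outside the listed members, rose in RTOC. Its normalised signal was 167 (E14.5) and 220 (E15.5) in 2D culture and 692 (E14.5) and 675 (E15.5) in RTOC. Both RTOC values lay above both 2D values, and the RTOC values differed from each other by less than the 2D values did. On the log2 scale the RTOC over 2D ratio was 2.05 for E14.5 and 1.61 for E15.5, averaging 1.83 ± 0.31 (SD, n = 2), or 3.56-fold. The increase passed the test (SE 0.27, adjusted p = 0.0076 from limma). Across the 10 spots of the probe, the log2 ratio ran from 1.83 to 2.60 for E14.5 and from 1.37 to 1.84 for E15.5. Every one of the 10 spots was higher in RTOC on each array and well above background in both dyes, as the plot of single spots shows. With normexp background correction and loess in place of the processed signals the mean was 0.84 and remained past the threshold (adjusted p = 0.0363 from limma), below the 1.05 of Il33 under that processing.

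Il33, listed on the array under the clone name 9230117N10Rik and named here through its transcript, also rose. Its normalised signal was 869 (E14.5) and 1610 (E15.5) in 2D culture and 2710 (E14.5) and 2975 (E15.5) in RTOC. The 2 RTOC values lay close together and above both 2D values, while the 2D value of the E15.5 array was 1.85 times that of the E14.5 array. Log2 ratios of 1.64 (E14.5) and 0.89 (E15.5) averaged 1.26 ± 0.53 (SD, n = 2), or 2.40-fold. The increase passed the test (SE 0.30, limma adjusted p = 0.0303). The call was lost when the 2 channels of an array were not paired (adjusted p = 0.0726 from limma) and with trended, robust variance estimates (adjusted p = 0.0559 from limma).

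Neither of the interleukin 1 ligands themselves, Il1a and Il1b, showed a difference past the test. The brighter probe of Il1a, a ligand that can act while bound to the membrane, gave 142 (E14.5) and 172 (E15.5) in 2D culture and 136 (E14.5) and 124 (E15.5) in RTOC. The RTOC values lay just below the 2D values, with a log2 ratio of -0.05 and -0.48 and a mean of -0.26 ± 0.30 (SD, n = 2, adjusted p = 0.487 from limma). The second Il1a probe gave log2 ratios of 0.19 (E14.5) and -0.73 (E15.5) (adjusted p = 0.555 from limma), with its E14.5 2D channel not well above background. The mean of both probes took the other sign, at 0.022 and 0.049, with normexp and median centring, and that of the second probe was 0.011 with normexp and loess.

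Il1b, the secreted ligand, differed in direction between the arrays. Its normalised signal was 72.5 (E14.5) and 165 (E15.5) in 2D culture and 164 (E14.5) and 130 (E15.5) in RTOC, so that the ranges of the cultures overlapped. A log2 ratio of 1.18 on the E14.5 array stood against -0.34 for E15.5, with a mean of 0.42 ± 1.08 (SD, n = 2, SE 0.41, adjusted p = 0.475 from limma). On the E14.5 array all 10 spots were higher in RTOC, from 0.61 to 2.19 on the log2 scale, and on the E15.5 array all 10 were lower, from -0.54 to -0.13. Spots of 1 array share its 2 RNA samples and are not replicates of the culture. In 2D culture of the E14.5 array 1 of the 10 spots was well above background, so that the probe was not counted as such there and the ratio of that array rests on a dim channel.

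**Figure D2:**
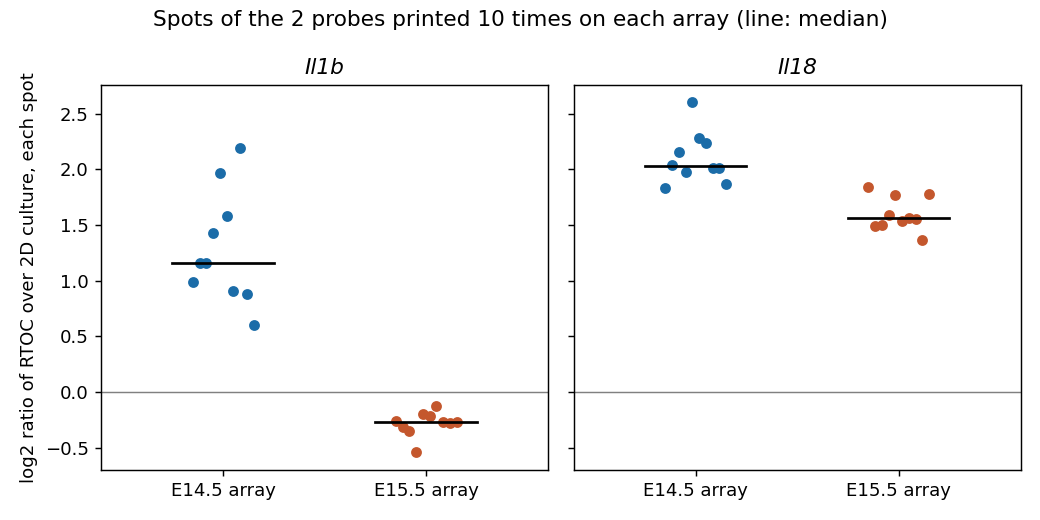
Log2 ratio of RTOC over 2D culture at each of the 10 spots of the Il1b probe and of the Il18 probe on each array, with a line at the median. The Il1b spots lie above 0 on the E14.5 array and below 0 on the E15.5 array, whereas those of Il18 lie between 1.37 and 2.60 on both.

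The antagonist Il1rn turned in the same way as Il1b, and by more. The brighter probe gave 238 (E14.5) and 746 (E15.5) in 2D culture and 575 (E14.5) and 319 (E15.5) in RTOC, all well above background. The E15.5 2D culture held the highest value and the E14.5 2D culture the lowest, with both RTOC values in between. Log2 ratios were 1.27 for E14.5 and -1.23 for E15.5, with a mean of 0.02 ± 1.77 (SD, n = 2, SE 0.59, adjusted p = 0.982 from limma). Its SD between the arrays was at the 98.97th percentile of all genes tested, of which the median SD was 0.28. Opposite signs on the 2 arrays occurred for 2 of the 9 members, beside 20.4% of all genes, and opposite signs with a change over 2-fold on both arrays for Il1rn, beside 0.296% of all genes (40 genes). The second Il1rn probe was not well above background in any channel and had log2 ratios of 0.54 and -1.69.

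Among the receptor chains, Il1rl1 was the one called, and it was lower in RTOC. Its brightest probe gave 2283 (E14.5) and 208 (E15.5) in 2D culture and 195 (E14.5) and 104 (E15.5) in RTOC. The E14.5 2D culture stood far above the other 3 channels, at 11.0 times the E15.5 2D culture, and the lower 2D value lay only just above the higher RTOC value. RTOC over 2D was -3.55 (E14.5) and -1.01 (E15.5) on the log2 scale, or 11.7-fold and 2.01-fold lower in RTOC. Its mean of -2.28 ± 1.80 (SD, n = 2), or 4.85-fold lower, passed the test (SE 0.60, adjusted p = 0.0405 from limma). The SD of this probe between the arrays was at the 99.04th percentile of all genes tested.

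The second Il1rl1 probe showed a drop of like size on both arrays. Its normalised signal was 1476 (E14.5) and 206 (E15.5) in 2D culture and 75.4 (E14.5) and 11.8 (E15.5) in RTOC, where the last value was not well above background. The log2 ratio was -4.29 and -4.13, with a mean of -4.21 ± 0.12 (SD, n = 2, adjusted p = 0.0016 from limma), and the ratio of the E15.5 array rests on that dim channel. The dimmest probe, shown above, was well above background in the E14.5 2D culture alone, at 104 beside 12.9 to 13.5 in the other 3 channels, and was not tested. Folds given as at least are bounds set by each array's dimmest signals that count as measured, after normexp, loess and Aquantile normalization. For this probe the bound was 1.15-fold lower in RTOC, as a mean over both arrays. The E15.5 2D channel was itself not well above background, so the E15.5 array alone has no bound. With normexp and loess the means of the brightest and second probes were -1.09 (adjusted p = 0.192 from limma) and -1.25 (adjusted p = 0.0996 from limma), so both calls were lost. Both were also lost when the channels of an array were not paired (adjusted p = 0.202 and 0.0679 from limma). No filter on dim probes and the methods' t-test likewise left neither probe called.

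Il1r1, the signalling receptor of interleukin 1, had higher values in RTOC on both arrays, with no call. Its normalised signal was 6683 (E14.5) and 2794 (E15.5) in 2D culture and 8667 (E14.5) and 8379 (E15.5) in RTOC. The RTOC values nearly coincided and lay above both 2D values, of which the E14.5 value was the higher by 2.39 times. These gave a log2 ratio of 0.38 (E14.5) and 1.58 (E15.5), with a mean of 0.98 ± 0.86 (SD, n = 2, SE 0.36), and did not pass the test (adjusted p = 0.0942 from limma).

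The decoy receptor Il1r2 had a higher value in RTOC on both arrays without passing the test. Its brighter probe gave 62.4 (E14.5) and 126 (E15.5) in 2D culture and 310 (E14.5) and 193 (E15.5) in RTOC, and the first of these was not well above background. They gave a log2 ratio of 2.31 (E14.5) and 0.61 (E15.5), with a mean of 1.46 ± 1.20 (SD, n = 2, SE 0.44, adjusted p = 0.058 from limma). The test was passed when the log ratios were used as deposited, without quantile normalization (mean 1.55, adjusted p = 0.0373 from limma), and the mean was 0.38 with normexp and loess. The second Il1r2 probe was well above background in RTOC of the E14.5 array alone, with log2 ratios of 2.14 and 0.81. As a mean over both arrays its level in RTOC was at least 1.04-fold higher. On the E15.5 array neither channel was well above background, so that array alone has no bound.

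Il1rap, the accessory chain that the receptors of interleukin 1 and interleukin 33 share, had lower values in RTOC on both arrays. Its brightest probe gave 803 (E14.5) and 495 (E15.5) in 2D culture and 287 (E14.5) and 411 (E15.5) in RTOC. Both RTOC values lay below both 2D values, and the gap was wide on the E14.5 array and narrow on the E15.5 array. The log2 ratio was -1.48 and -0.27, with a mean of -0.88 ± 0.86 (SD, n = 2, adjusted p = 0.122 from limma). The second probe gave -0.83 and -0.88, with a mean of -0.85 ± 0.03 (SD, n = 2, adjusted p = 0.0539 from limma), and passed with trended, robust variance estimates (adjusted p = 0.0454 from limma). The other 3 Il1rap probes were not well above background in any channel. The Il1rap probes are paired with different transcripts on the array, and which form of Il1rap each detects was not tested.

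**Figure D3:**
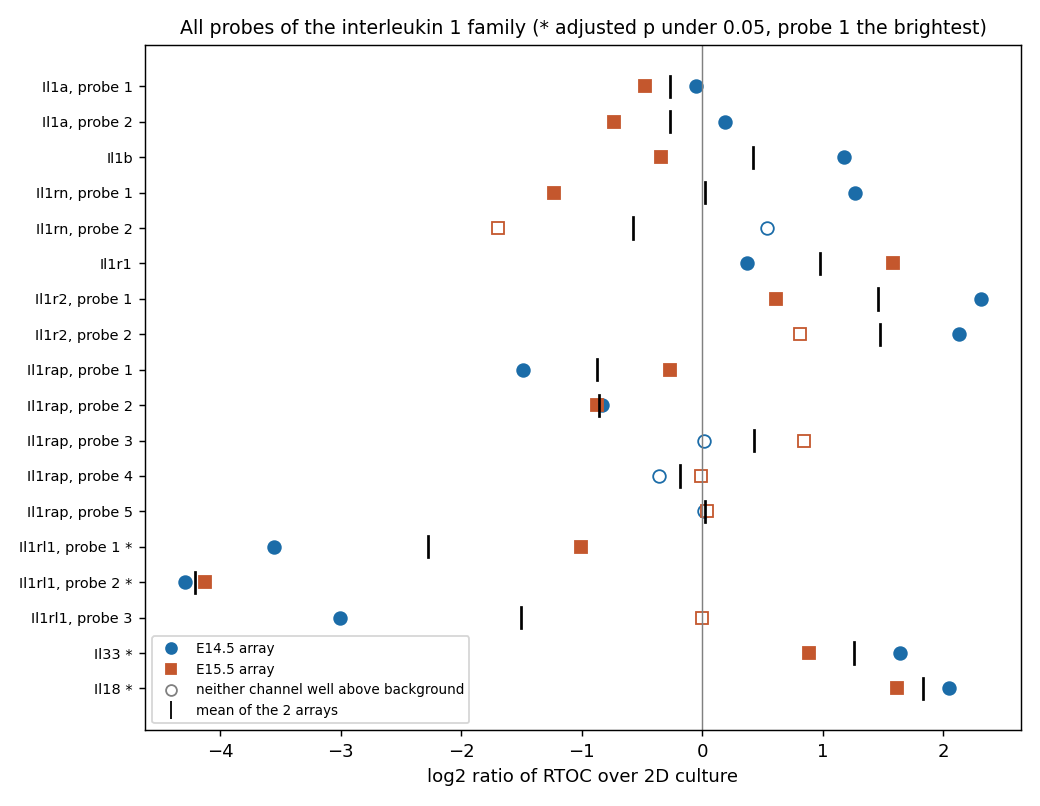
Log2 ratio of RTOC over 2D culture for all 18 probes of the family, with a circle for the E14.5 array, a square for the E15.5 array, a bar at their mean, open symbols where neither channel was well above background and an asterisk for the 4 probes called. The Il18 and Il33 symbols lie right of 0 on both arrays, the symbols of the 2 called Il1rl1 probes left of 0, and those of Il1b and Il1rn on both sides.

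For all 9 members the 2 RTOC values of the brightest probe lay closer together on the log2 scale than the 2 values of 2D culture did, beside 60.8% of all genes tested. For Il1rl1 the E14.5 array exceeded the E15.5 array by 3.46 in 2D culture and by 0.91 in RTOC, for Il1r1 by 1.26 and 0.05. For Il1rn the E15.5 array was higher in 2D culture (log2 difference -1.65, E14.5 minus E15.5) and the E14.5 array in RTOC (0.85). There is 1 sample of each culture and stage, so these differences have no test.

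The genes whose centred log2 signals over the 4 channels lay nearest to those of the called members were found among 13502 genes by Euclidean distance, as a description. Il1rl1 had few near neighbours: Cavin2 (distance 0.46), a gene of caveolae, Serpinb2 (0.51), a plasminogen activator inhibitor, and Tbx18 (0.59), a transcription factor of mesenchyme, with 1 gene within a distance of 0.5. The nearest to Il18 were Dexi (0.09), Spats2l (0.09) and Dnaic1 (0.11), with 264 genes within 0.5. The nearest to Il33 were Rfxank (0.10), a subunit of the factor that drives MHC class II genes, Pald1 (0.11) and Mbtd1 (0.13), with 364 genes within 0.5. The 4 channels share 2 arrays and 2 dyes.

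Around the members, the other ligands and antagonists of the family gave 2 genes higher in RTOC and 0 lower, of 3 tested and 6 on the array. Over all genes tested, 15.4% were higher and 12.7% lower. Il18bp, the soluble protein that captures interleukin 18, rose with its ligand, from 486 (E14.5) and 555 (E15.5) to 1690 and 2198, with a log2 ratio averaging 1.89 ± 0.13 (SD, n = 2, limma adjusted p = 0.00603), and its second probe was called in the same direction. Il36rn, the antagonist of another receptor of the family, had no channel of 2D culture well above background and reached an at least 1.13-fold higher level in RTOC (limma adjusted p = 0.0276).

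The other receptors gave 0 genes higher and 2 lower, of 3 tested and 5 on the array, beside 15.4% and 12.7% of all genes. Il18r1, the ligand-binding chain for interleukin 18, fell from 803 (E14.5) and 746 (E15.5) in 2D culture to 115 and 121 in RTOC, opposite to its ligand. On the log2 scale this averaged -2.72 ± 0.13 (SD, n = 2, limma adjusted p = 0.00253). Sigirr, an inhibitory receptor of the family, fell by a mean of 1.32 on the log2 scale, with an SD of 0.07 (n = 2, limma adjusted p = 0.0168). With normexp and loess the 2 higher ligands and antagonists became 1 and the 2 lower receptors 1. The median log2 ratio was 1.76 over the 3 ligands and antagonists tested and -1.32 over the 3 receptors tested.

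Of 17 genes of the signalling chain below the receptors, all tested, 2 were higher and 3 lower, beside 15.4% and 12.7% of all genes, with a median log2 ratio of 0.27. The 3 lower calls became 0 with normexp and median centring and 1 with no replicate block. The kinase Irak2 fell with a mean log2 ratio of -2.42 and the kinase Irak4 with -1.39, whereas the NF-kB precursor Nfkb1 rose with 1.91 and Tab1, a partner of the kinase Tak1, with 1.26. The second probe of Irak4 was not called, at -0.37. The adaptor Myd88 did not pass the test, at -0.04 (E14.5) and -0.05 (E15.5). Of 13 genes of the inflammasome and of cytokine processing on the array, 8 were tested. Of these 4 were higher and 1 was lower, beside 15.4% and 12.7% of all genes, with a median of 0.80. Casp1, the protease that cleaves pro-interleukin 18 and pro-interleukin 1 beta, rose with 1.87, Casp4 with 3.26 and the adaptor Pycard with 2.36. The calpain Capn2 fell with -2.10, and the sensor Nlrp3 did not pass the test, at -0.21.

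Of 23 genes on the array that interleukin 1 is known to induce in stromal cells, 19 were tested, 2 were higher and 10 lower, beside 15.4% and 12.7% of all genes, with a median log2 ratio of -1.03. The lower count was 5 with normexp and median centring and 5 with no replicate block, and the higher count was 1 in both. Il6 was at least 11.9-fold lower in RTOC and Csf2, the gene of the growth factor GM-CSF, at least 3.09-fold lower, since neither was well above background there. Ptgs2, the inducible cyclooxygenase, fell with a mean log2 ratio of -6.19, and Vcam1, an adhesion molecule, rose with 2.81. Like the other lists, this one was chosen with earlier results of these data known. Many other signals are known to induce these genes as well.

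**Figure D4:**
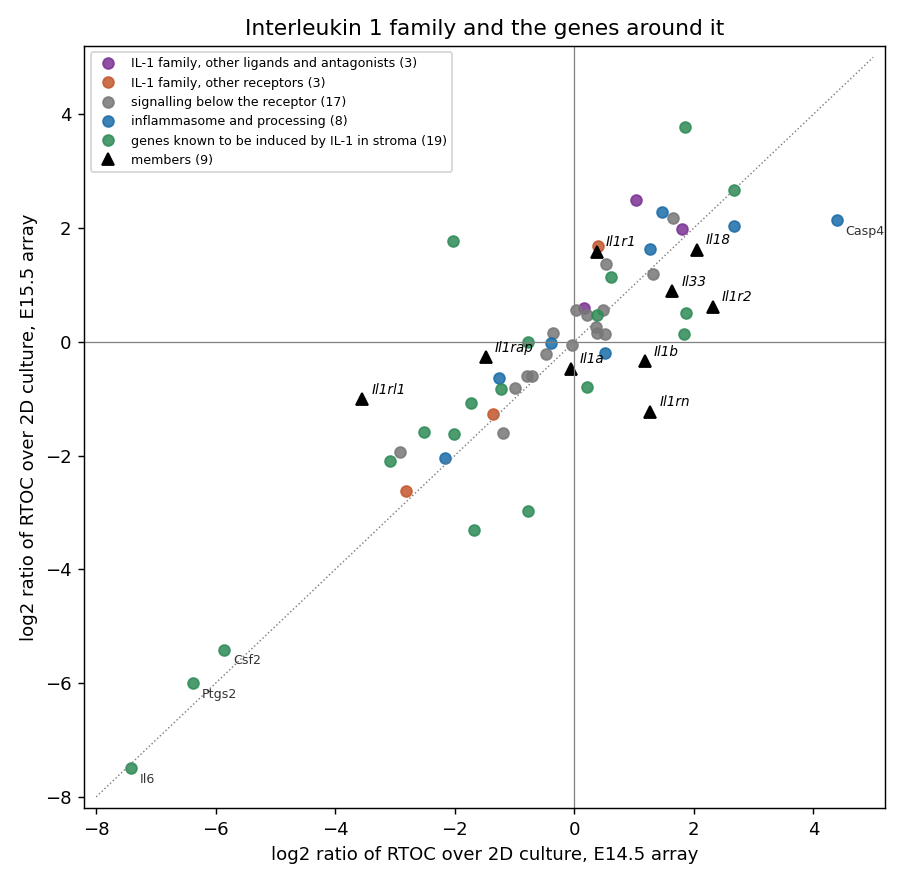
Log2 ratio of RTOC over 2D culture on the E14.5 array (horizontal) and the E15.5 array (vertical) for the 9 members (triangles, brightest probe) and for the tested genes of 5 related lists, with the number tested in the key and a dotted line of equal ratios. Il6, Ptgs2 and Csf2 lie far down the line of equal ratios, Il18 and Il33 lie at the upper right, and Il1b and Il1rn lie below the horizontal axis and right of the vertical one.

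The cultures held a mixture of cells, and in such RNA fewer cells of a type and less RNA per cell cannot be told apart. Markers of cell types that are known sources of the family were read in the same channels, and a channel is called dim where the probe was not well above background. Each count of markers below stands beside 15.4% of all genes tested that were higher in RTOC and 12.7% that were lower. Of 17 macrophage and monocyte markers, all tested, 11 were higher in RTOC and 0 lower, led on the log2 scale by Adgre1 (3.01), Aif1 (2.72), Cx3cr1 (2.01, dim in the E14.5 2D channel) and Ptprc (1.88). Their summed normalised signal was 109630 to 118580 in 2D culture and 280950 to 351790 in RTOC, and it rose on both arrays. Lyz2 alone gave 48100 to 58013 of the sum in 2D culture and 123710 to 168098 in RTOC. Itgam was lower on both arrays without passing the test, at -0.30 (E14.5) and -0.92 (E15.5). Of 3 neutrophil markers tested, S100a9 (log2 ratio 2.42) and S100a8 were higher, the latter by at least 1.18-fold, being dim in both 2D channels, while Elane, Cxcr2 and Retnlg were not well above background in any channel, and the sum was 540 to 625 in 2D culture and 1955 to 3383 in RTOC.

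Mast cells and innate lymphoid cells are known for ST2. Of 5 mast cell markers tested, 4 were higher in RTOC and 0 lower, among them Kit (log2 ratio 2.34) and Mcpt4 (2.16, dim in the E14.5 2D channel). Cpa3 and Hdc, dim in both 2D channels, were higher by at least 1.80-fold and 1.56-fold. The sum was 430 to 474 in 2D culture, where most of these markers were dim, and 1416 to 3672 in RTOC. Ms4a2 was not well above background in any channel. Of 5 innate lymphoid markers tested, Areg (log2 ratio -4.06, dim in the E15.5 RTOC channel) and Gata3 (-1.62) were lower. Klrg1 was not well above background in any channel. The sum was 5638 to 14831 in 2D culture and 7814 to 8815 in RTOC, with the highest value in the E14.5 2D culture. Id2, which did not pass the test, gave 8748 of that value, and 6862 (E14.5) and 5733 (E15.5) of the RTOC sums. Areg and Gata3 are also made by epithelial and other stromal cells. Of 5 T lineage markers tested, Cd3g (log2 ratio 3.84, dim in the E15.5 2D channel) and Cd3d (at least 1.31-fold, dim in both 2D channels) were higher. Cd3e and Lck, well above background in all 4 channels, did not pass the test. Cd3e was at -0.03 (E14.5) and -0.12 (E15.5), and Lck at 1.03 (E14.5) and -0.43 (E15.5). Cd8a, Cd2 and Cd247 were not well above background in any channel. From 2D culture to RTOC the sum went from 799 to 2911 on the E14.5 array and from 1080 to 1160 on the E15.5 array.

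Markers of the labelled stroma were well above background in all 4 channels for 10 of 10 epithelial and 10 of 10 mesenchymal genes. Of the epithelial markers 5 were higher, led by Enpep (4.90), Ly75 (4.47), Psmb11 (3.90) and Krt5 (2.90), and 2 lower, Krt14 (-1.86) and Cdh1 (-1.28). Epcam did not pass the test, at -0.54 (E14.5) and -0.87 (E15.5). The epithelial sum was 310360 to 638510 in 2D culture and 722000 to 804040 in RTOC. Krt8 and Krt18, neither of them called, gave most of it in each channel. Of the mesenchymal markers 4 were higher, Lum (4.55), Pdgfra (2.84) and Fap (2.39) among them, and 5 lower, Col1a1 (-2.16) among them, with a sum of 382610 to 547470 in 2D culture and 300220 to 318050 in RTOC. Of 7 endothelial markers tested 5 were higher and 0 lower, among them Emcn (log2 ratio 3.87) and Cldn5 (4.50, dim in the E14.5 2D channel). Cdh5 and Tie1, dim in both 2D channels, were higher by at least 5.02-fold and 1.12-fold. Flt1, named after its values were seen, went the other way at -3.16 (E14.5) and -0.58 (E15.5) without passing the test (limma adjusted p = 0.0695). The endothelial sum, to which Flt1 gave most in the E14.5 2D culture, fell from 13303 to 9065 on the E14.5 array and rose from 2699 to 13561 on the E15.5 array. The part of any of these cell types in the values of the members was not tested.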

How the data were processed

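The arrays were Agilent 2-colour whole-genome mouse arrays. The authors ran Feature Extraction (9.1.3.1 in the file headers, 11.5.1.1 in the submitters' processing notes), and the deposited scanner files hold, as an intensity, the mean signal, the local background and a processed signal after background subtraction and dye normalization. The deposited log10 ratio and series values are Cy5 over Cy3 of the processed signals within each array. The methods name quantile normalization in GeneSpring GX and, for the study as a whole, a two-tailed Student's test.

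Control spots and spots marked as outliers (5 on E14.5, 1 on E15.5) were left out, processed signals were quantile normalized over 4 channels, spots were averaged by probe, and log2 ratios were fitted with limma 3.58.1 (lmFit, eBayes, two-sided, Benjamini-Hochberg over all 23681 tested probes, threshold 0.05). Feature Extraction replaces spots not above background by surrogate values, which set the dimmest signals. Pairing comes from the array, which holds both cultures. Probes were named through RefSeq accessions (22951), current symbols (6659) or older symbols (3109), and 8455 kept the name in the file. The members and gene lists were chosen with earlier results of these data known. Named from each list were up to 4 called genes with the largest mean log2 ratio in either direction. All members were named. Myd88, Nlrp3, Lyz2, Itgam, Id2, Cd3e, Lck, Krt14, Cdh1, Epcam, Krt8, Krt18 and Flt1 were added after their values were seen. Alternatives were normexp (offset 50) with loess, Aquantile or median centring, deposited ratios, other filters, outlier spots kept, no block, other variance estimates, the methods' t-test, the median over probes and each array left out. Steps were tested on simulated data.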

Additional observations from a re-analysis of the deposited data

Results flagged for a closer look

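Il1b and Il1rn, 2 of the 9 members, had log2 ratios of opposite sign on the 2 arrays, beside 20.4% of all genes tested. For Il1b the ratio of the E14.5 array rests on a 2D channel not well above background. The log2 ratio of Il1b on the E14.5 array exceeded that on the E15.5 array by 1.52. For Il1rn the difference was 2.50. With 1 array for each stage the difference was not tested, and the design confounds stage, length of organ culture and array, which cannot be told apart.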

How the results depend on the processing

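Over 137 values of the 12 tested member probes under alternative settings, 111 kept their direction and side of the threshold, 18 lost the call, 4 gained it and 4 changed sign. The 4 are those of Il1a: 0.022 for the brighter probe and 0.049 for the second with normexp and median centring, and 0.011 for the second with normexp and loess, with or without Aquantile. The called member genes were 2 higher and 1 lower as reported. The higher count was 1 without the replicate block, which unpairs the channels of an array, 1 with trended, robust variance estimates, and 0 with no filter on dim probes and with the methods' t-test once adjusted by Benjamini-Hochberg, where 2 and 0 members had an unadjusted p under 0.05. The lower count was 0 in all of those but trended, robust estimates, and 0 with normexp and any of the normalizations tried after it (loess, loess with Aquantile, median centring). The 3608 probes higher and 3210 lower became 2009 and 1701 with normexp and loess, with or without Aquantile, 2245 and 700 with normexp and median centring, 2218 and 1812 with no replicate block, and 0 and 0 with no filter (10666 at an unadjusted p under 0.05) and with the methods' t-test (3538 unadjusted). With no filter and with the methods' t-test adjusted, 0 genes of the 5 related lists were called. Normexp with median centring moved the median of all probes to 0.12. The normexp offset adds 50 to both channels, which draws ratios of dim probes toward 0. Its part in these shifts, and that of the other steps changed with it, was not tested. With 1 array left out, each value is that of the other array (for Il1rl1's brightest probe -3.55 to -1.01, for Il1rn -1.23 to 1.27, for Il1b -0.34 to 1.18), and no count could be tested, as no residual degrees of freedom remain. Signal over background limits Il1b, Il1r2 and the dim probes of Il1rn, Il1rap and Il1rl1.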
